A study of Drosophila melanogaster with 4 samples.

Results

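The 8 genes followed here, Dcr-1, Dcr-2, AGO1, AGO2, r2d2, loqs, drosha and pasha, encode the core proteins of the miRNA and siRNA pathways of Drosophila melanogaster. They were taken by name, 8 of the 16510 gene names in the tables, and each name had a single row in every library. The tables came from adult testes of males 3 days old. There were 2 libraries labelled with the genotype Su(var)3-9, described by the series as mutant, and 2 libraries labelled wild type. Neither the allele, nor the genetic background of the stocks, nor any further change they share is given in the sources used here. Each library pooled 50 testes of flies kept at 23 °C, the series calls its replicates biological, and the RNA was polyadenylated. Values were FPKM, fragment numbers divided by transcript length and by the mapped total of the library. Each had a 95% interval that the authors' software had attached to it.

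Both pathways cut double-stranded RNA into short guides that an Argonaute protein carries to matching transcripts. In the nucleus, Drosha and its RNA-binding partner Pasha release hairpins from primary miRNA transcripts. After export, Dcr-1 with its partner Loqs cuts the hairpin to a miRNA, which AGO1 uses to repress messenger RNAs. Dcr-2 instead cuts long double-stranded RNA of viruses, transposons and genomic hairpins. With its partner R2D2 it loads the products into AGO2, a slicing Argonaute, and an isoform of Loqs also works with Dcr-2. In flies the miRNA pathway is known for the upkeep of germline stem cells, mainly from work on ovaries, and siRNAs from genomic hairpins are known to silence selected genes in the testis. Su(var)3-9 is a methyltransferase of histone H3 in heterochromatin.

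Depth differed with the label. The number of fragments, estimated from the interval widths and summed over all rows, was 1446647 and 1468278 for the mutant-labelled libraries, against 3207719 and 3366747 for the wild type. Su(var)3-9 itself was listed at 0 in mutant-labelled replicate 1 and held 7.83 FPKM in replicate 2, against 7.93 and 9.74 FPKM in the wild type, so its level did not set mutant replicate 2 apart. All 12 testis markers, among them vas, can, dj and Mst87F, were above 0 in all 4 libraries. Their summed level was 16736 and 15690 FPKM in the mutant-labelled libraries and 11274 and 10381 FPKM in the wild type. Mst87F, at 12608 and 11433 FPKM against 7070 and 6218, made up most of that sum. The testis markers did not share a direction. The germline gene vas was at 9.16 and 12.5 against 15.1 and 16.4 FPKM. The cyst cell gene tj was at 0.648 and 0.464 against 1.31 and 1.05 FPKM. Higher in both mutant-labelled libraries were can (19.2 and 23.6 against 15.7 and 15.4 FPKM) and sa (45.8 and 47.4 against 40.8 and 35.2 FPKM). So was eya, at 13.4 and 13.1 against 11.2 and 10.7 FPKM. The summed level of 5 accessory gland markers was 1442 FPKM in wild type replicate 1 and lay between 4.42 and 38.1 FPKM in the other 3 libraries. The summed level of 4 muscle markers ran from 117 to 164 FPKM, and that of the neuronal markers elav and nSyb from 8.83 to 18.4 FPKM. That sum was almost all nSyb, which was higher in both mutant-labelled libraries, while elav was at 0.370 and 0.922 FPKM there against 0.525 and 0.517 FPKM in the wild type. Fat body markers (3 genes) summed to 2.95 to 10.0 FPKM, Yp1 among them at 0 throughout, and the haemocyte marker Hml was at 1.44 to 3.95 FPKM. The part of these tissues, and of depth, in the differences below was not tested. In whole testes, fewer cells of a type and less RNA per cell cannot be told apart.

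In wild-type testes loqs stood far above the other members, at 150 ± 0.262 FPKM (SD, n = 2). FPKM is divided by transcript length, and the members were set in order of it. Whether other effects of length on the values shaped this order was not tested. AGO2 followed at 47.0 ± 10.8 FPKM, then Dcr-2 at 14.6 ± 1.95 FPKM and pasha at 14.5 ± 1.17 FPKM. AGO1 came next at 8.12 ± 0.982 FPKM, then Dcr-1 at 5.15 ± 0.325 FPKM and drosha at 1.62 ± 0.314 FPKM, and r2d2 was listed at 0. Only the neighbours Dcr-2 and pasha overlapped between libraries in this order, and the mean of loqs was 3.19 times that of AGO2. In the mutant-labelled libraries the order was the same, except that Dcr-1 (5.78 ± 0.661 FPKM) and AGO1 (5.43 ± 1.85 FPKM) overlapped and changed places. There the ranges of the deposited intervals also overlapped between pasha and Dcr-1 and between AGO1 and drosha, so those steps of the order are less certain.

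**Figure D1:**
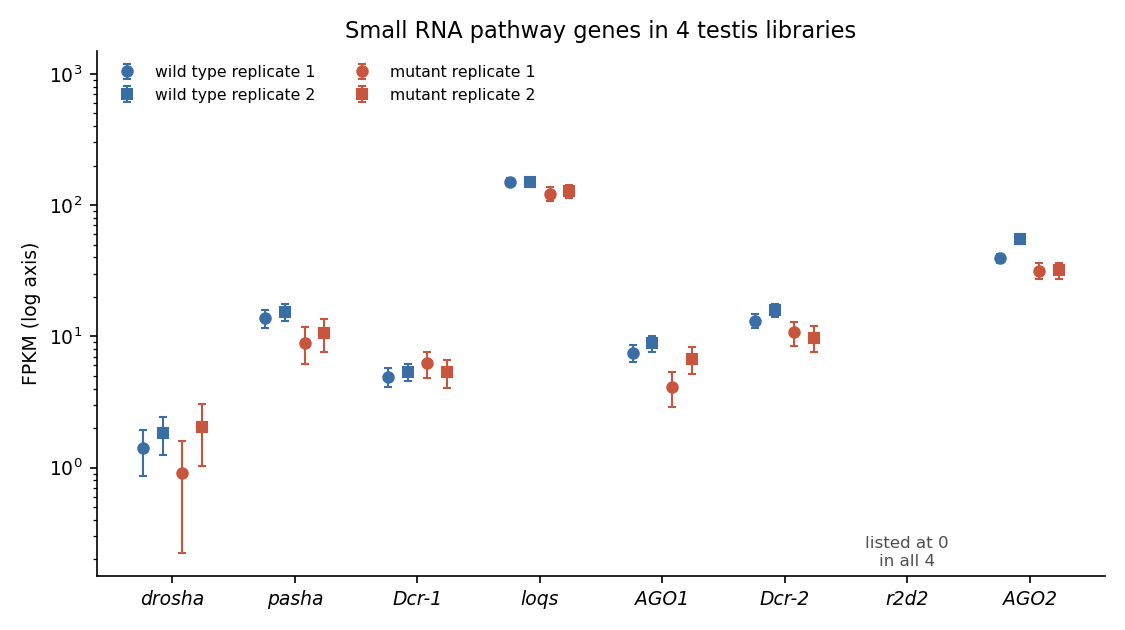
FPKM (log axis) of the 8 genes, ordered from miRNA processing on the left to the siRNA Argonaute on the right, with 1 point per library and the deposited 95% interval as the bar. The genes loqs and AGO2 stand above the rest in all 4 libraries, Dcr-1 and drosha overlap between the genotypes, and r2d2 has no point because it is listed at 0.

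None of the 7 members that could be tested passed the threshold between the genotypes. The test was limma on log2(FPKM + 1) over the 10784 genes whose mean reached 1 FPKM, p-values adjusted by Benjamini-Hochberg, and a threshold of 0.05. It called 20.1% of all those genes, 11.4% as higher and 8.67% as lower in mutant-labelled testes. At an unadjusted p under 0.05, 4 of the 7 members (Dcr-2, AGO2, loqs and pasha) were below that level, against 37.0% of all tested genes. Under quantile normalization or median scaling this was 1 of the 7 members, against 34.2% and 36.8% of all genes. For 5 members (Dcr-2, AGO1, AGO2, loqs and pasha) both mutant-labelled libraries lay below both wild-type libraries, as they did for 32.7% of all tested genes, and 32.2% were the other way round. The median log2 fold change was -0.47 over the 7 members and -0.01 over all tested genes, and with a trend on transcript length removed it was -0.11 and 0. The member r2d2 did not reach the minimum level and was not tested. A missed threshold does not show that levels were alike, and the intervals of the differences are given below.

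The nuclear step was followed first. The gene for the nuclease, drosha (2R, 7932429 to 7936840, dm6, 3 exons), was at 0.908 and 2.04 FPKM in the mutant-labelled libraries, against 1.40 and 1.85 FPKM in the wild type. The mutant pair spanned the wild-type pair on both sides. These levels rested on an estimated 7.0 and 16.0 fragments in the mutant libraries and 26.9 and 37.6 in the wild type, the fewest of all members above 0. Its log2 fold change of -0.12 (SE 0.37, limma adjusted p = 0.846) had a 95% interval from -1.13 to 0.89, which leaves room for a change of either sign.

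Its partner pasha (3R, 31617977 to 31622217) was at 8.90 and 10.6 FPKM in the mutant-labelled libraries, against 13.7 and 15.4 FPKM in the wild type. Both mutant values lay below both wild-type values, and their mean was 0.671 times that of the wild type. The deposited intervals were separate in 1 of the 4 pairs of libraries, mutant replicate 1 (6.10 to 11.7 FPKM) and wild type replicate 2 (13.2 to 17.5 FPKM). The log2 fold change was -0.53 (SE 0.16, 95% interval -0.96 to -0.10, limma adjusted p = 0.0893). The levels of the drosha and pasha transcripts were thus unequal in every library, pasha being the higher.

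In the cytoplasmic step of the miRNA pathway, Dcr-1 had the only positive fold change among the members. Dcr-1 (3R, 22734007 to 22741091, 1 annotated transcript of 6913 bases) was at 6.24 and 5.31 FPKM in the mutant-labelled libraries, against 4.92 and 5.38 FPKM in the wild type. The groups overlapped, and none of the 4 pairs of intervals was separate. The log2 fold change was 0.14 (SE 0.18, 95% interval -0.36 to 0.64, limma adjusted p = 0.627), and it was 0.04 without mutant replicate 1 and 0.24 without mutant replicate 2. An estimated 68.7 to 79.1 fragments stood behind the mutant values and 160.0 to 181.5 behind those of the wild type.

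The gene loqs (2L, 13382652 to 13385671, 6 annotated transcripts of 1334 to 2147 bases) encodes the partner of Dcr-1 and, as another isoform, of Dcr-2. It was at 122 and 128 FPKM in the mutant-labelled libraries, against 150.3 and 149.9 FPKM in the wild type. The groups did not overlap, and the mutant mean was 0.833 times that of the wild type. Its log2 fold change of -0.26 (SE 0.07, 95% interval -0.44 to -0.08) had the smallest adjusted p of the members, 0.0665 by limma, above the threshold. Under quantile normalization loqs passed, with a log2 fold change of -0.44 (limma adjusted p = 0.0371). The table gives a single value per gene, so isoforms that serve the miRNA and the siRNA pathway cannot be told apart. The antisense non-coding RNA gene CR44599, which covers 18.3% of the exon length of loqs, was listed at 0 in all 4 libraries.

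AGO1, the Argonaute of the miRNA pathway (2R, 13943387 to 13958089), was at 4.12 and 6.74 FPKM in the mutant-labelled libraries, against 7.43 and 8.82 FPKM in the wild type. Mutant replicate 1 was separate from both wild-type libraries by its interval (2.89 to 5.35 FPKM), while mutant replicate 2 (5.14 to 8.34 FPKM) overlapped both. The log2 fold change was -0.53 (SE 0.27, 95% interval -1.27 to 0.21, limma adjusted p = 0.240). It was -0.23 without mutant replicate 1 and -0.83 without mutant replicate 2. The gene CG33155 lies on the opposite strand within the AGO1 locus and overlaps 2.37% of its exon length. It went the other way, at 47.0 and 41.7 FPKM against 26.6 and 30.4 FPKM (log2 fold change 0.62, SE 0.12, limma adjusted p = 0.0408), and did not pass with the length trend removed (adjusted p = 0.107). Without known strand use in the counting, fragments of the shared stretch could fall to either gene. CG33155 was chosen for this comparison after its values were seen, as was every other overlapping gene named here.

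In the siRNA pathway, Dcr-2 (2R, 17574979 to 17581525, 2 annotated transcripts) was at 10.7 and 9.75 FPKM in the mutant-labelled libraries, against 13.2 and 15.9 FPKM in the wild type. Both mutant libraries were separate by interval from wild type replicate 2 and overlapped wild type replicate 1. The mutant mean was 0.703 times that of the wild type (log2 fold change -0.47, SE 0.16, 95% interval -0.90 to -0.03, limma adjusted p = 0.118).

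The siRNA Argonaute AGO2 (3L, 15554113 to 15561042, 3 annotated transcripts) was at 31.7 and 31.9 FPKM in the mutant-labelled libraries, against 39.4 and 54.7 FPKM in the wild type. Here the wild-type libraries were separate from each other by interval, at 36.1 to 42.7 and 50.9 to 58.5 FPKM. Both mutant values lay below both wild-type values, and 3 of the 4 pairs of intervals were separate, the most among the members. The log2 fold change was -0.53 (SE 0.18, 95% interval -1.03 to -0.03, limma adjusted p = 0.121). Its size rested on the wild-type library, being -0.76 without wild type replicate 1 and -0.30 without wild type replicate 2. Wild type replicate 1 is the library with the high accessory gland markers. The antisense gene CG7739, which overlaps 7.65% of the exon length of AGO2, was at 23.8 to 29.3 FPKM in all 4 libraries (log2 fold change 0.03, limma adjusted p = 0.902).

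The gene r2d2, whose protein partners Dcr-2 in loading AGO2, was listed at 0 FPKM in all 4 libraries, with an interval of 0 to 0 in each. It lies at 2L, 7800147 to 7802097, on the plus strand. The phosphatase gene cdc14 lies on the opposite strand, with its end reaching into r2d2, and overlaps 22.9% of the exon length of r2d2. It was at 227 and 246 FPKM in the mutant-labelled libraries, against 243 and 257 FPKM in the wild type. In the whole tables, 208 of 573 protein-coding names whose locus overlaps an opposite-strand row with a mean of at least 100 FPKM were listed at 0 in all 4 libraries, or 36.3%. Among 8169 protein-coding names with no overlap this was 8.80%. The listed 0 of r2d2 is read here neither as absence nor as presence of its transcript. Whether the overlap set this 0 was not tested.

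Paralogous pairs were compared within each library. A plain ratio is free of the scaling between libraries, while the 1 added to each FPKM leaves part of it in the log2 ratios. The plain ratio of Dcr-2 to Dcr-1 in FPKM was 2.68 and 2.96 in the wild type and 1.72 and 1.84 in the mutant-labelled libraries. Dcr-2 was the higher of the pair in all 4 libraries, and the groups of ratios did not overlap. On the log2(FPKM + 1) scale the ratio was 1.33 ± 0.105 in the wild type and 0.73 ± 0.053 in the mutant libraries (SD, n = 2), a difference of -0.60. Its exact permutation p was 0.333, two-sided, and 0.33 is the smallest that 2 against 2 libraries allow. The difference lay between -0.68 and -0.44 over the 9 alternatives run for it, which changed the pseudocount, removed the length trend, left out a library or compared same-numbered replicates.

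The ratio of AGO2 to AGO1 was 5.30 and 6.20 in the wild type and 7.70 and 4.73 in the mutant-labelled libraries. The mutant pair enclosed the wild-type pair. The difference on the log2(FPKM + 1) scale was -0.002 (SD 0.42 in the mutant and 0.17 in the wild type, n = 2, exact permutation p = 1, two-sided). Both Argonaute genes had nearly the same fold change, but the spread of AGO1 allows a shift of the ratio in either direction. No ratio of r2d2 to loqs is given, since r2d2 was listed at 0.

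**Figure D2:**
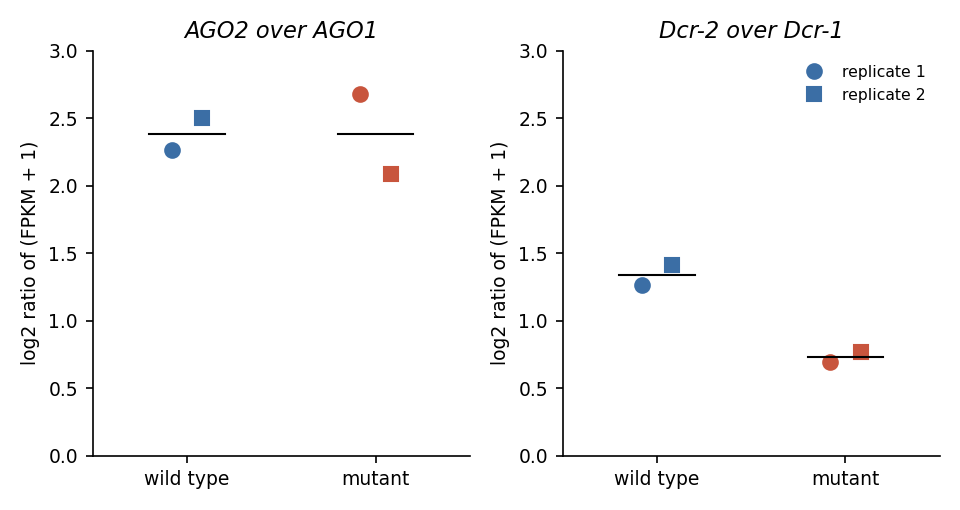
Log2 ratio of (FPKM + 1) within each library for AGO2 over AGO1 and Dcr-2 over Dcr-1, with circles for replicate 1, squares for replicate 2 and a line at the mean of 2 libraries. The Dcr-2 over Dcr-1 ratios lie near 1.33 in the wild type and near 0.73 in the mutant-labelled libraries, while the AGO2 over AGO1 ratios overlap.

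Most of the members are long transcripts, and fold changes in these libraries went down with transcript length. By the longest annotated transcript, the 2130 tested genes between 500 and 1000 bases had a median log2 fold change of 0.26, and the 1018 genes beyond 5000 bases one of -0.46. Each member was therefore set beside the genes within 20% of its own length. AGO1 (7888 bases) and Dcr-2 (5684 bases) were close to the median of such genes, which was -0.48 and -0.40, with 44.6% and 44.2% of those genes below them. Dcr-1 stood high, above 92.7% of 464 genes of like length, whose median was -0.48. The shorter pasha (2847 bases) stood low, with 15.8% of 1525 such genes below it and a median of -0.11. AGO2 and loqs had 25.3% and 26.5% below them, and drosha 66.5%. These percentages are descriptions of a place among genes and carry no test.

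With the length trend taken out of each library by loess, the fold changes of the long members moved up. Dcr-1 went to 0.56 (limma adjusted p = 0.103), AGO1 to -0.06 (0.886) and Dcr-2 to -0.11 (0.607). AGO2 went to -0.30 (0.244), and drosha turned to 0.13 (0.831). The fold changes of pasha (-0.45, limma adjusted p = 0.117) and loqs (-0.29, 0.0627) stayed near their values as deposited. No member passed in that fit, where 13.6% of all genes did. The longest annotated transcript need not be the one used in testes, which matters for AGO1, whose annotated transcripts run from 3481 to 7888 bases.

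**Figure D3:**
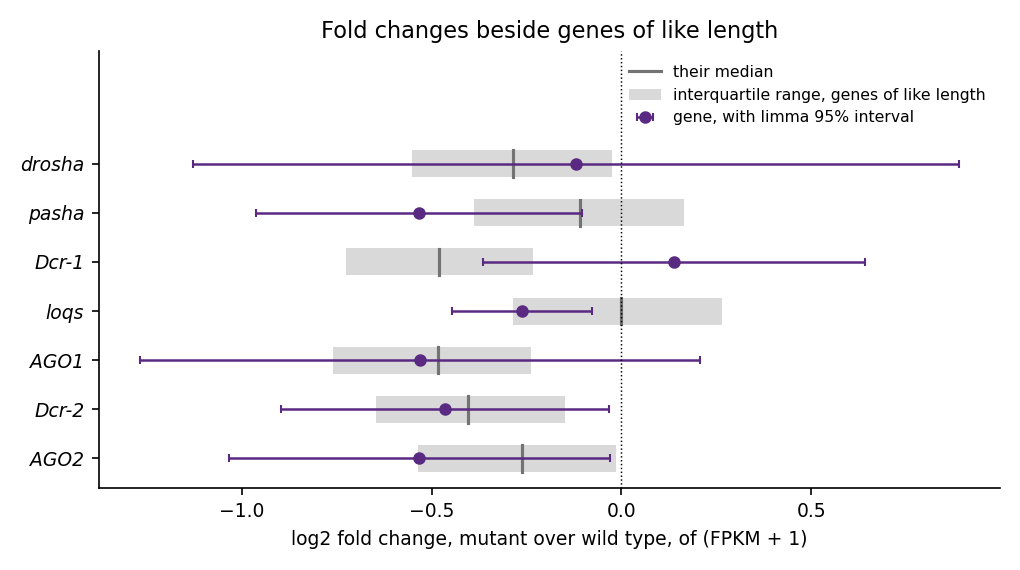
Log2 fold change of (FPKM + 1), mutant-labelled libraries over wild type, for the 7 tested genes with the 95% interval of limma (points and bars). Grey boxes give the interquartile range, and the grey line the median, of genes within 20% of the same transcript length. Dcr-1 lies to the right of its box and pasha to the left of its own, whereas AGO1 and Dcr-2 lie near their medians.

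By the distance between log2(FPKM + 1) values over the 4 libraries, the tested genes most like AGO1 were Top3alpha (distance 0.13) and CG7376 (0.15). Those most like AGO2 were CG42590 (0.24) and puf (0.26). With 4 libraries such a match mainly reflects a similar level.

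A list of 32 further genes of these pathways was read in the same fit, and all 32 were tested. Of these, 9 fell, 1 rose and 22 did not pass. The lower genes made up 28.1% of the list, against 8.67% of all tested genes. Their median log2 fold change was -0.30, against -0.01 over all tested genes. The listed genes were also longer and more abundant, with a median length of 3222.5 bases against 1704 and a median level of 59.4 FPKM against 14.2. Without any 1 of the 4 libraries none of the 32 passed by limma, when 10 to 17 of them had an unadjusted p under 0.05. At most 262 of all genes passed in those fits. With the length trend removed, 4 fell (Fmr1, Not1, me31B and Dcp2) and 2 rose (vig and bel); all but bel, 5 genes, were also called as deposited. The lower genes were then 12.5% of the list, against 5.78% of all genes in that fit.

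Of the 9 listed genes that act after AGO1 in repression, 5 fell and 4 did not pass, where 8.67% of all tested genes were lower. With the length trend removed 3 of the 9 fell, against 5.78% of all genes in that fit. The grouping of these 9 genes was made after the values were seen. The scaffold gene of the deadenylase complex, Not1, fell from 138 and 154 FPKM in the wild type to 75.2 and 81.2 FPKM (limma adjusted p = 0.0132), a log2 fold change of -0.89 with an SE of 0.09. The decapping enzyme gene Dcp2 fell from 37.2 and 34.4 FPKM to 17.05 and 17.03 FPKM (-1.03, SE 0.11, limma adjusted p = 0.0125). For both genes the groups did not overlap, and both still passed with the length trend removed, at -0.33 and -0.66.

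The gene gw, which encodes the GW182 protein that binds AGO1 and recruits those enzymes, fell from 46.0 and 50.0 FPKM to 31.2 and 29.2 FPKM (log2 fold change -0.65, limma adjusted p = 0.0246). The helicase gene me31B fell from 122 and 117 FPKM to 95.1 and 90.3 FPKM (-0.36, limma adjusted p = 0.0423), and the poly(A)-binding protein gene pAbp from 573 and 570 FPKM to 429 and 415 FPKM (-0.44, limma adjusted p = 0.0144). With the length trend removed gw (adjusted p = 0.111) and pAbp (0.0874) did not pass and me31B did. The deadenylase genes Pop2 and twin had log2 fold changes of -0.01 and -0.05. The decapping genes DCP1 and Ge-1 were at 0.48 and -0.05, none of these 4 past the threshold.

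Among genes for proteins reported in Argonaute complexes, the RNA-binding protein gene Fmr1 fell to 59.1 and 62.1 FPKM from 104 FPKM in both wild-type libraries (log2 fold change -0.77, SE 0.08, limma adjusted p = 0.0116). Rm62, a helicase gene, fell from 51.6 and 50.7 FPKM to 31.6 and 35.9 FPKM (-0.59, limma adjusted p = 0.0325). The gene vig was the single one that rose, from 151 and 139 FPKM to 256 and 267 FPKM (0.85, SE 0.07, limma adjusted p = 0.00984), and it also passed with the length trend removed (0.98). Its locus lies within that of the germline gene vas, with no shared exon in the annotation used. Tudor-SN, which encodes a nuclease of the same complexes, was at -0.44 (limma adjusted p = 0.0587).

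Of the chaperones that load Argonautes, 1 of 5 passed, a share near the 20.1% of all tested genes called in either direction. Hsp83, the gene of Hsp90, fell from 684 and 676 FPKM to 543 FPKM in both mutant-labelled libraries (log2 fold change -0.32, limma adjusted p = 0.0202). Its partners Hsc70-4 (531 against 544 FPKM), Droj2 (452 against 479 FPKM), Hop and p23 did not pass, at -0.04, -0.08, -0.30 and -0.11 on the log2 scale. The RNA methyltransferase gene Hen1, whose enzyme methylates the ends of AGO2-bound siRNAs, was at 20.3 and 28.3 FPKM in the mutant-labelled libraries, against 41.3 and 42.1 FPKM in the wild type (-0.77, limma adjusted p = 0.0587). The gene blanks, which encodes a double-stranded RNA binding protein of the testis, was at 144 and 100.3 FPKM and at 121 and 124 FPKM (-0.03, limma adjusted p = 0.940). The translational repressor gene mei-P26 fell from 52.7 and 55.9 FPKM to 29.2 and 28.3 FPKM (-0.89, limma adjusted p = 0.0125) and was at -0.09 with the length trend removed, where its annotated length of 23041 bases was used. The other 11 genes of the list, among them Cbp20 (0.52), RanBP21 (-0.61) and bel (0.07), did not pass as deposited.

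**Figure D4:**
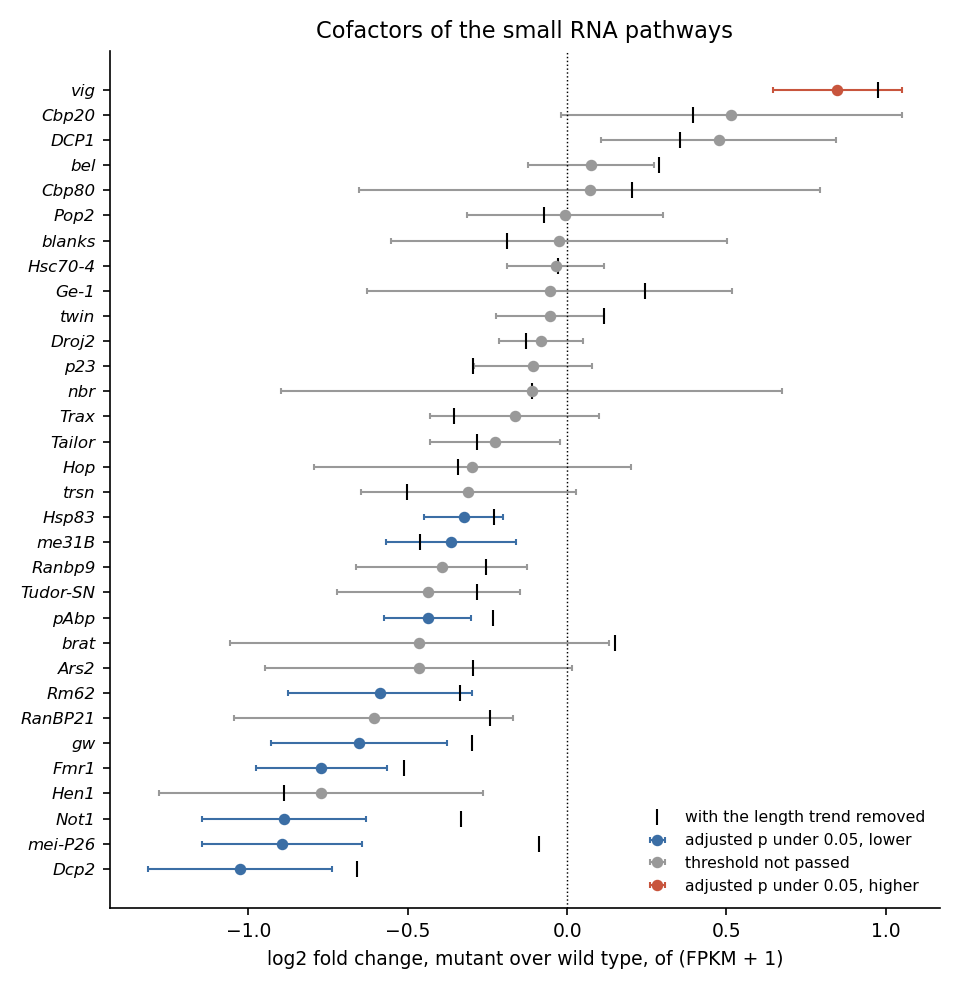
Log2 fold change of (FPKM + 1), mutant-labelled libraries over wild type, with the 95% interval of limma for 32 further genes of the pathways, blue where lower and red where higher at an adjusted p under 0.05. Black ticks give the value with the length trend removed, which for Not1, gw and mei-P26 lies closer to 0.

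Genes that make or answer hairpin siRNAs gave 2 higher calls among 6 tested, against 11.4% higher of all tested genes, with a median log2 fold change of -0.07. The hairpin RNA gene CR32207 rose from 23.0 and 22.3 FPKM to 50.7 and 43.9 FPKM (log2 fold change 1.03, SE 0.12, limma adjusted p = 0.0143). ATPsyn-beta, a subunit of ATP synthase whose transcript is a reported hairpin siRNA target, rose from 88.1 and 80.9 FPKM to 117 and 110 FPKM (0.42, limma adjusted p = 0.0428) and did not pass with the length trend removed (adjusted p = 0.0728). The antisense gene CG11076 overlaps 8.0% of the exon length of ATPsyn-beta and was also higher in level, at 83.3 and 70.8 against 59.7 and 57.5 FPKM.

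Other hairpin genes did not pass. CR33940 was at 19.8 and 19.2 FPKM against 11.3 and 14.4 FPKM in the wild type (limma adjusted p = 0.0773), and CR32205 at 11.9 and 17.4 against 19.7 and 23.7 FPKM (0.166). The antisense gene CG32212 overlaps 41.2% of the exon length of CR33940. It was at 10.2 and 0 FPKM in the mutant-labelled libraries, against 3.26 and 4.68 FPKM in the wild type. The reported targets mus308 (-0.67, limma adjusted p = 0.138) and CG8289 (-0.67, 0.110) were lower in value without passing. A further listed target did not reach the minimum level. Without any 1 library none of the 6 passed by limma, when 2 to 4 had an unadjusted p under 0.05.

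The tables also list 240 miRNA gene names, of which 6 were above 0 in any library and none in all 4. Only 3 reached the minimum level and were tested. Polyadenylated libraries of this kind hold primary transcripts rather than mature miRNAs. The mir-989 row, of 174 bases, was at 77.2 and 128 FPKM in the mutant-labelled libraries and listed at 0 in both wild-type libraries, and limma called it higher (adjusted p = 0.00453). Those values rested on an estimated 1.0 and 2.0 fragments, with intervals that began at 0. In the same way, 1.0 estimated fragment gave 3467 FPKM for mir-4985 in mutant replicate 2 and 3138 FPKM for mir-995 in wild type replicate 1. The let-7-C row was at 0.622 and 0.988 FPKM in the wild type, on an estimated 3.2 and 5.1 fragments. It was listed at 0 in both mutant-labelled libraries and was not tested. No difference in miRNA genes is read from these rows.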

How the data were processed

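The deposited tables hold FPKM per gene with interval bounds, also in FPKM, made by the authors; the submitters' processing notes name TopHat, Cufflinks and build dm6. Versions, annotation and strand use were not found there or in the labels. The 380 rows of 145 repeated names were summed. Lengths, exons and overlaps were read from Ensembl's gene models for this assembly, which held a length for 99.8% of tested genes, and older names were matched through RefSeq synonyms. Fragments were estimated from each upper interval bound (FPKM times 2, divided by bound minus FPKM, then squared), where 54.4% to 63.1% of low single-start rows came within 0.05 of a whole number. Among the members only drosha in mutant replicate 1, at 7.0 fragments, was low enough for this check. The other fragment numbers of members were not checked, and AGO1, AGO2 and pasha have several starts. Depth limits precision. Each interval belongs to a single library, so it does not cover the spread between replicates. Since many low rows missed a whole number, the widths need not reflect counting error alone.

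limma 3.58.1 in R 4.3.3 (lmFit, eBayes with trend) was fitted on log2(FPKM + 1) for the 10784 genes whose mean reached 1 FPKM; this scale understates changes of low genes. The fit was tested on simulated data of 10784 genes. In all 200 genes were changed, in equal numbers 2-fold and 4-fold. It recovered 72% of the 2-fold and 83% of the 4-fold changes. Of its calls 8.82% were false, a share above that set by the adjusted p threshold of 0.05. This was a single run with independent noise and no length trend. The fit of the real data called 2164 genes, far more than were changed in the simulation, so these shares need not hold there. The estimated changes of the members were all smaller than 2-fold, and recovery of such changes was not simulated. The members, lists, tests and alternatives were chosen with earlier results of these data known. The rule for named genes took all members, every called gene of the lists, the most abundant cofactors and miRNA rows, and the 2 nearest profiles to AGO1 and AGO2; other genes were named after their values were seen. CG4068 and CR18854 had no row of their own and were not analysed here. No sequences are shown, as none were at hand for these genes.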

Additional observations from a re-analysis of the deposited data

How the results depend on the processing

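No member passed in any of the 15 alternatives except loqs under quantile normalization, which makes 1 member called (log2 fold change -0.44, limma adjusted p = 0.0371). Only drosha changed sign, to 0.24 under quantile normalization, 0.13 with the length trend removed, 0.22 without mutant replicate 1 and 0.003 without wild type replicate 2, in a range of -0.455 to 0.216 without a library. The count of called cofactors moved from 10 to 16 under quantile normalization, 6 with the length trend removed and 5 with no variance trend, which gave 1103 calls over all genes in place of 2164. Leaving out 1 library gave 0 to 262 calls over all genes, 0 cofactors and 0 hairpin genes, and 0 to 1 miRNA rows. With no filter, quantile normalization, the length trend removed, no variance trend or the replicate block, 1 hairpin gene passed in place of 2, and among genes above 0 in all 4 libraries 0 miRNA rows could be tested. The Dcr-2 over Dcr-1 difference was -0.44 with a pseudocount of 5, and -0.68 to -0.53 without a library. The AGO2 over AGO1 difference was -0.30 to 0.29 without a library, and within same-numbered replicates, as a replicate block, 0.41 and -0.42. The replicate block left 0 members, 8 cofactors and 1671 of all genes called. The labels do not say whether same-numbered samples were paired. Deviations of same-numbered libraries correlated at -0.05 across genes, which with 2 libraries a group cannot settle it. With 2 libraries a group, the shallow libraries labelled mutant limit drosha most. The cause of these shifts was not tested.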
